A study of Drosophila melanogaster with 2 samples.

Results

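GATAe, a zinc-finger GATA factor of the Drosophila melanogaster endoderm and midgut, was mapped by chromatin immunoprecipitation with sequencing (ChIP-seq), and 869 of the 3032 peaks on the chromosome arms were intronic summits with a GATA core. A summit is the position of highest enrichment that the authors give for each peak. A summit was taken when it lay inside a gene body, in no annotated exon, more than 500 bp from every transcript start site (TSS), and had the 4 bases GATA whole within 50 bp of it on either strand. Another 287 intronic summits had no such core, so 869 of 1156 intronic summits, or 75.2%, held one, as did 45.2% of all intronic positions that could have met the same distance rule. That difference is part of what the rule selected and is given as a description.

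The material was whole embryos aged 0 to 24 h from a fly strain with an inserted GATAe-eGFP transgene, in 1 group of 2 biological replicates, precipitated with an antibody against GFP from chromatin sonicated to 200 to 800 bp. No untagged or mock sample was analysed here, and a peak in whole embryos does not tell which cells it came from. The values below are the authors' signal per peak, in a list that scores peaks across both replicates, with each replicate's own signal beside it on the scale of its own list. Read depth is not given in the files, so intervals on shares are exact binomial intervals at 95% that cover counting error only.

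GATA factors recognise a short core that is usually written WGATAR, where W is A or T and R is A or G. The zinc finger contacts the core in the major groove, and the bases beside it alter how well a given factor binds. Introns, the first one above all, hold many fly enhancers, the stretches of DNA that set where and when a gene is transcribed. In the fly gut, GATAe acts after serpent, an earlier GATA factor of the endoderm, and keeps midgut genes active into adult life.

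Sequences of 16 windows of 101 bp centred on summits are shown for what they let a reader see. The first 4 lie under some of the strongest peaks, the next 3 lie in the genes of GATA factors, 7 more show different numbers and spacings of the word, and the last 2 lie under strong peaks with no WGATAR. All are from the RefSeq copy of the dm6 assembly, read 5′ to 3′ on the plus strand, with every core in capitals. A core on the minus strand therefore reads TATC.
CG11050 (chr2L:6612653-6612753): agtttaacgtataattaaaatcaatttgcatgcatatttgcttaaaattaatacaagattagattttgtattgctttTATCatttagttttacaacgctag
p130CAS (chr3L:156675-156775): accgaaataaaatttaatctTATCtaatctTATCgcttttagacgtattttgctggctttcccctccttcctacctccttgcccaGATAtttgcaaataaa
Ptx1 (chr3R:30915425-30915525): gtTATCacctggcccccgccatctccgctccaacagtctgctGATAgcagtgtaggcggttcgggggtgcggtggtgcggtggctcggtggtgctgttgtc
scrib (chr3R:26555754-26555854): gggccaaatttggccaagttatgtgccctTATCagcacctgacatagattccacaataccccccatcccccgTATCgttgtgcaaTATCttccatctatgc
GATAe (chr3R:16014693-16014793): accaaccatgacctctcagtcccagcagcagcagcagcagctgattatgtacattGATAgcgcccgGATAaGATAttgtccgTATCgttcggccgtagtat
GATAd (chr2L:10334974-10335074): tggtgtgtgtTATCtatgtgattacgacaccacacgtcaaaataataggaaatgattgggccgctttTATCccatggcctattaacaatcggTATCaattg
grn (chr3R:8180474-8180574): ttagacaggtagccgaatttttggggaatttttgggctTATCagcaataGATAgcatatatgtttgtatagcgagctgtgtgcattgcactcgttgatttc
Eip75B (chr3L:18003278-18003378): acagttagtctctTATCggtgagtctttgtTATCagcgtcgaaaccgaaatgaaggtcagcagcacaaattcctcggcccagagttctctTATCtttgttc
Hr4 (chrX:1963896-1963996): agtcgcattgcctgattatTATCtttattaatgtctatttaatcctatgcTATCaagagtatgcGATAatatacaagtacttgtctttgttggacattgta
Socs36E (chr2L:18147654-18147754): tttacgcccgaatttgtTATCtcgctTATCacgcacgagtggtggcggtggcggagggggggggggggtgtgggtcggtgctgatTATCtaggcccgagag
CG12065 (chrX:8575139-8575239): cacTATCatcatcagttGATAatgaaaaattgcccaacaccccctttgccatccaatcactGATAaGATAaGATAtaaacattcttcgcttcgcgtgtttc
fz2 (chr3L:19169164-19169264): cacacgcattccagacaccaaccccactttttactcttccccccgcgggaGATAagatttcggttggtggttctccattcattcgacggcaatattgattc
S6k (chr3L:5809778-5809878): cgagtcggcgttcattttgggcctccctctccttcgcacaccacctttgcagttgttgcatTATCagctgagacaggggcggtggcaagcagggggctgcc
FASN1 (chr2L:3058083-3058183): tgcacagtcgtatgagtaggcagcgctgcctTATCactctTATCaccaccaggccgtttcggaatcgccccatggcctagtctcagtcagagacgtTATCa
CG9663 (chr2L:3302154-3302254): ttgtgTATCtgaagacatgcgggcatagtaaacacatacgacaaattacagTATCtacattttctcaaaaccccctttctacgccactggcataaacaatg
CG3726 (chrX:5918886-5918986): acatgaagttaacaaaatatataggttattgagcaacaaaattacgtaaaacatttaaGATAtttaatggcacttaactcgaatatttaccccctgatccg

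Each of these windows lay whole within intron, with no annotated exon in it. The windows of CG12065 and FASN1 show several cores close together, with 5 cores in the first, of which 4 were WGATAR, and 3 in the second, all WGATAR. CG12065 was picked for its number of cores after the values were seen. Single cores stood in the windows of CG11050, fz2 and S6k, and the fz2 core began at the summit itself. CG9663 had 2 cores and CG3726 had 1, none with the bases of WGATAR.

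Signal at the 869 summits ranged from 2.40 to 875, with a median of 92.0 and quartiles of 71.5 and 124. The median over all 3032 arm peaks was 92.3, so as a class these summits sat at the middle of the list. The 287 intronic summits with no core had a median of 80.8 with quartiles of 65.4 and 109, and the 1042 core summits within 500 bp of a TSS had a median of 97.4. Signal above the median of all arm peaks, which 50% of arm peaks have by construction, was found at 431 of the 869 core summits (49.6%, interval 46.2 to 53.0) and at 97 of the 287 without a core (33.8%, interval 28.3 to 39.6). The difference of 15.8 percentage points had a Newcombe 95% interval of 9.24 to 22.0 (two-sided Fisher's exact test, adjusted p = 7.098e-06 over 9 class comparisons). In the list of replicate 2 alone the difference was 1.68 points with an adjusted p of 0.772.

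The strongest member lay in CG11050, where the shortest annotated intron at the summit was 140 bp, with a signal of 875. Its signal was 509 in replicate 1 and 354 in replicate 2, the highest of any member in both. A summit in p130CAS, which encodes an adaptor protein of integrin and Src signalling, had a signal of 533, with 260 and 257 in replicates 1 and 2. The next, in an intron shared by the overlapping models of HmgD and HmgZ, which encode high-mobility-group chromatin proteins, had a signal of 525, with 309 and 208 in the replicates. CG9663 followed at 447, with 220 and 174. In norpA, which encodes the phospholipase C of phototransduction, the signal was 397, with 236 and 159. All 25 of the strongest members were in the thresholded list of each replicate, against 44.3% of all members and 46.5% of all arm peaks. WGATAR lay within 50 bp of 15 of the 25 (60%), against 70.7% of all members.

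The rest of these 25 fell in genes of several kinds. Transcription factors among the hosts were Ptx1, a homeodomain protein of the embryonic midgut, Xrp1, a bZIP protein of the stress response, Hr3, a nuclear receptor of the ecdysone response, and bi, a T-box protein. Their signals were 317, 348, 298 and 281. At Ptx1 the replicate signals were 155 and 164, at Xrp1 186 and 151, at Hr3 172 and 121, and at bi 112 and 179. The Hr3 summit also lay in the gene bodies of CG12912 and CG46321. Chromatin and nuclear regulators were represented by the kinase gene Tlk (312), by simj, which encodes a subunit of the NuRD complex (271), by Pits (264) and by a second HmgD and HmgZ summit (294). Signalling genes were S6k, the growth kinase acting below Tor (292), for, a cGMP-dependent kinase (304), 5-HT7, a serotonin receptor (301), and the receptor guanylyl cyclase gene Gyc76C, whose intron overlaps CG42637 (262). Cell adhesion and cytoskeleton genes were scrib (286), the αPS3 integrin gene scb (279) and Lasp, an actin-binding protein whose intron overlaps CG43954 (353). The remaining hosts were Treh, which encodes trehalase (315), vib, a phosphatidylinositol transfer protein (300), and CG3726, CG12769 and CG32486 at 328, 308 and 306.

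**Figure D1:**
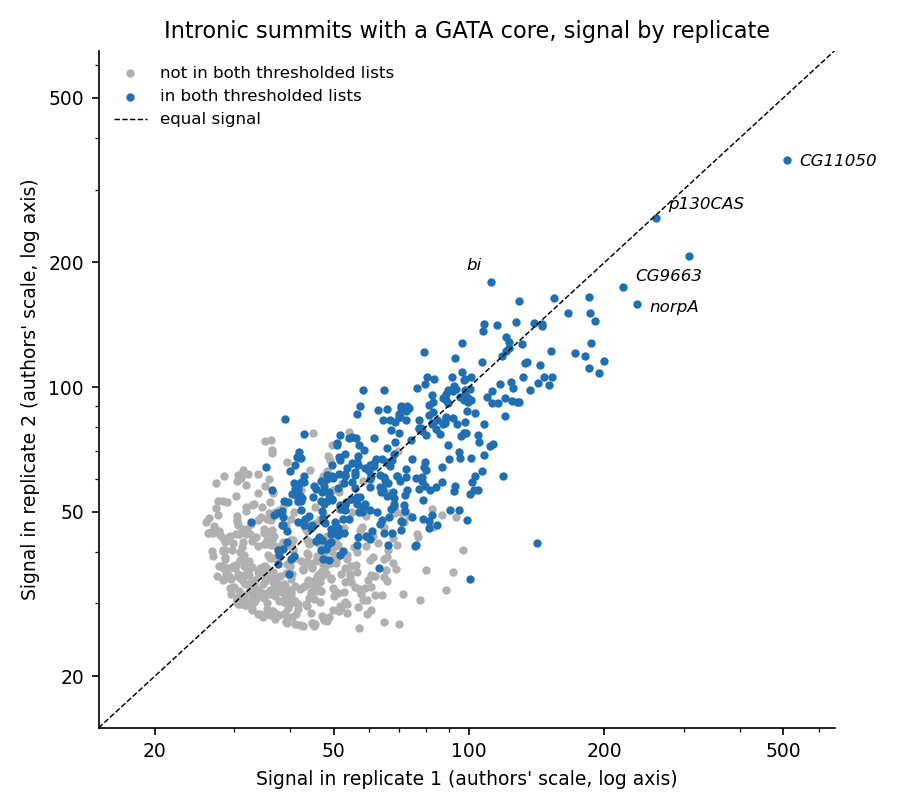
Signal of the 814 intronic core summits that lay in a ranked peak of each replicate, replicate 1 on the horizontal and replicate 2 on the vertical axis, both logarithmic and each on its own list's scale. Blue points met a thresholded peak of both replicates and grey points did not; the dashed line marks equal values, and CG11050, at 509 and 354, stands at the upper right.

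Of the 869, 814 lay in a ranked peak of both replicates, 827 in one of each taken alone, and 29 in none. Over the 814, the replicate signals had a Spearman's rho of 0.598 and, on the log2 scale, a Pearson's r of 0.72, a description over peaks that share 2 libraries. The replicate summits lay a median of 27 bp apart and within 50 bp of each other at 594 (73.0%). A core stood within 50 bp of both replicate summits at 706 of 814 (86.7%). The intron and TSS conditions were not checked at the replicate summits. Where peaks crowd, neighbouring members can take their replicate value from the same replicate peak.

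A thresholded peak of both replicates met 385 of the 869 (44.3%, interval 41.0 to 47.7), against 46.5% of all arm peaks. For 207 (23.8%) only replicate 1 had such a peak, for 97 (11.2%) only replicate 2, and for 180 (20.7%) neither. Over all arm peaks those shares were close, at 25.2%, 8.61% and 19.7%. By signal the split was steep, as can follow from a signal scored across the same 2 replicates. A call needs 1 bp of overlap, so a weak member can share the replicate peak of a stronger neighbour. With the members ranked by signal in 5 groups of 173 or 174, both replicates called 97.7% of the strongest group, whose signals were 138 and above, 73.0% of the next, 31.0% of the middle one, then 7.47% and 12.1% of the last 2. Among intronic summits with no core, 101 of 287 (35.2%, interval 29.7 to 41.0) were called by both, 9.11 points fewer (interval of the difference 2.55 to 15.4, Fisher's exact test, adjusted p = 0.0092). With the core required within 25 bp the difference was 4.14 points with an adjusted p of 0.256.

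The rule asked for 4 bases, and the bases beside them were free to vary. WGATAR stood within 50 bp of 614 members (70.7%, interval 67.5 to 73.7). The core nearest to the summit was WGATAR at 480 of 869 (55.2%), against 313 of the 856 windows that held a core (36.6%) among 1738 windows centred 500 bp to either side of the same summits. The difference of 18.7 points (interval 14.0 to 23.2) passed the test with an adjusted p of 2.94e-14 by Fisher's exact test. Of the 1738 flank centres, 1359 lay in introns, 222 within 500 bp of a TSS, 156 in exons and 1 between genes. With flanks in introns alone, a setting added after the data were seen, the difference was 16.5 points. GC content was 41.3% in the summit windows and 40.5% in the flanks.

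Base by base, the nearest core was followed by A at 57.9% of members and 39.0% of flank windows, and the next base was G at 39.4% against 23.5%. The full word GATAAG was the nearest core at 276 members (31.8%, interval 28.7 to 35.0) and at 88 flank windows (10.3%, interval 8.33 to 12.5). On the other side, G stood directly before the core at 36 members (4.14%) and at 14.4% of flank windows. TGATAA was the most frequent 6-base form, at 26.2% of members against 15.8% of flank windows, followed by AGATAA at 16.9% against 12.3%. CGATAA, which WGATAR leaves out, came next at 13.9% against 7.59%. Over nearest cores of every form, the second base before the core was C at 30.5% of members and 21.0% of flank windows. It was so in the windows of scrib and S6k above, where TATCAGC is GCTGATA on the minus strand. These base shares are descriptions, since the word as a whole was what was tested.

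Cores also came in greater number. At least 2 lay within 50 bp at 506 of 869 summits (58.2%) and at 311 of the 856 flank windows with a core (36.3%). The difference was 21.9 points (interval 17.2 to 26.4, Fisher's exact test, adjusted p = 7.961e-19). Exactly 1 core was found at 363 members, 2 at 289, 3 at 144, 4 at 53 and 5 or more at 20. Their median signals were 87.7, 93.8, 100.3, 91.1 and 104, which is no steady rise with number. The 1694 cores of the 869 members were all distinct, so no core was counted for 2 summits.

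The nearest core's midpoint lay a median of 15.5 bp from the summit and 19.5 bp from the centre of flank windows. It was within 25 bp at 602 members (69.3%) and 513 flank windows (59.9%), a difference of 9.35 points (interval 4.83 to 13.8, Fisher's exact test, adjusted p = 8.289e-05). A window with more cores has a nearer one by number alone. Among windows with exactly 1 core, a comparison added after the data were seen, the shares were 52.9% and 49.2%, the difference was 3.72 points and the adjusted p was 0.319. In the list of replicate 2 alone the difference was 5.54 points with an adjusted p of 0.101.

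**Figure D2:**
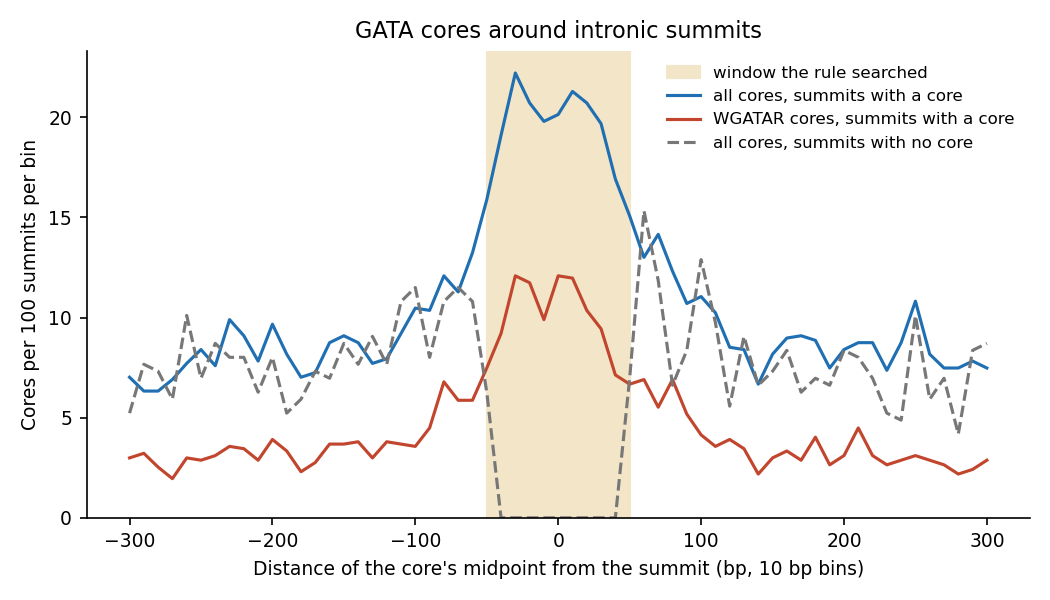
Cores per 100 summits in bins of 10 bp of distance from the summit, for all cores and WGATAR cores at the 869 intronic summits with a core and for all cores at the 287 with none. The shaded band is the window searched, where the grey line is low by rule. Outside it the lines for all cores at the 2 classes cross. With and without a core they stand at 12.3 and 6.62 per 100 summits at +80 bp, and at 13.0 and 15.3 at +60 bp. The WGATAR line peaks at 12.1 per 100 summits.

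Among the 289 members with exactly 2 cores, 159 had both on the same strand (55%, interval 49.1 to 60.8), against 102 of 212 flank windows (48.1%, interval 41.2 to 55.1). The 2 cores lay 4 to 10 bp apart at 24.9% of members and 17.5% of flank windows, and their median spacing was 24 bp and 25 bp. Those intervals overlap, and no order or spacing stood out. The nearest core lay on the coding strand of its host gene at 426 of 831 members with a single strand of host (51.3%, interval 47.8 to 54.7).

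Word and strength were only loosely tied. Members with WGATAR had a median signal of 94.2 and those with other cores alone 88.6. Signal was above the median of all peaks at 319 of 614 with WGATAR (52.0%) and 112 of 255 without (43.9%), a difference of 8.03 points (interval 0.73 to 15.2, Fisher's exact test, adjusted p = 0.0415). The call depended on the setting. The difference was 8.99 points with an adjusted p of 0.115 in the list of replicate 2 alone, −2.15 in that of replicate 1, and −3.49 with windows of 25 bp. Merging overlapping peaks gave 7.09 with an adjusted p of 0.0842, and keeping signals of 20 or more gave 7.58 with an adjusted p of 0.0621. From the strongest of the 5 groups to the weakest, the share with WGATAR was 73.6, 75.3, 69.5, 67.8 and 67.1%. A nearest core of GATAAG went with a median of 92.4, against 91.7 without it.

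Compared with the 1042 core summits at promoters, intronic members more often had WGATAR at the nearest core, at 55.2% against 44.1%. The difference was 11.1 points (interval 6.59 to 15.5, Fisher's exact test, adjusted p = 4.202e-06). GATAAG was the nearest core at 31.8% and 23.4%. The 8-base palindrome TATCGATA, which holds a core on each strand and is known as the site of the promoter factor DREF, lay within 50 bp of 5 intronic members (0.575%) and 34 promoter summits (3.26%). That difference was −2.69 points (interval −3.99 to −1.49, Fisher's exact test, adjusted p = 4.465e-05). Counted with or without the palindrome, the 6-base form CGATAG was the nearest core at 2.76% of intronic and 7.20% of promoter summits. Those were 75 promoter summits, more than the 34 with the palindrome.

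**Figure D3:**
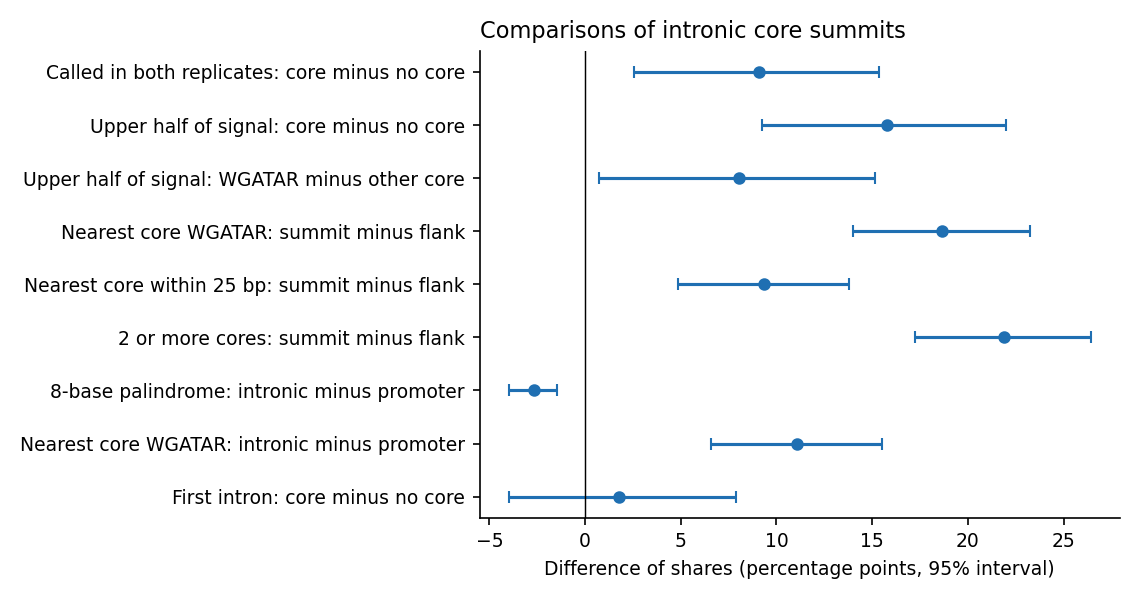
Differences of shares in percentage points for the 9 class comparisons, points with Newcombe 95% intervals, the first-named class minus the second. The number of cores (21.9) and the word at the nearest core (18.7) lie farthest to the right, and the interval of the first-intron comparison spans 0.

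Of 2032 6-mers compared between summit and flank windows with the core bases masked, 5 lay in a larger share of summit windows than of flank windows (0.246%) and 18 in a smaller share (0.886%), by Fisher's exact test with Benjamini-Hochberg adjustment over all. The most frequent of the 5 was AGATTA, at 10.4% of summits and 4.72% of flanks (Fisher's exact test, adjusted p = 0.000297). By the same exact test, CTGATT lay at 10.01% against 5.58% (adjusted p = 0.0138), GATTAG at 8.17% against 4.26% (adjusted p = 0.0138) and GTACAC at 5.75% against 2.82% (adjusted p = 0.0465). GATTGC, at 8.63% against 5.06% (Fisher's exact test, adjusted p = 0.0498), was outside the 20 words with the lowest p and is named because only 5 passed. How many words passed depended on the window. With 25 bp either side of the summit 0 words were more frequent and 1 less frequent, and with 100 bp 42 and 78. Words less frequent at summits in the main windows included GCAGGA, at 0.345% against 2.88%, and AAATTA, at 9.44% against 16.0%. Masking left a mean of 80.1 whole 6-mers per summit window and 89.7 per flank window of a possible 96, so summit windows had fewer places for any word; its part in the lower counts was not tested.

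Motifs known for other fly factors lay at summits in shares whose intervals overlapped those of the flanks. The GAGA factor's GAGAG was found in 11.4% of summit windows (interval 9.36 to 13.7) and 12.3% of flanks (interval 10.8 to 14.0), and the E-box CANNTG in 39.5% and 41.0%. The caudal-type TTTATG lay in 9.78% and 12.1%, the forkhead-type TGTTTAC in 2.30% and 2.42%, and TGANTCA, the AP-1 word, in 2.42% and 3.51%. Both strands were searched for each.

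Taking the shortest annotated intron at each summit, the members' introns had a median length of 6927 bp, from 63 bp to 158159 bp. The members lay a median of 1964 bp from the nearest TSS. They crowded toward start sites even beyond the 500 bp that the rule left out. Between 501 and 1000 bp from a TSS lay 205 members (23.6%) and 8.16% of the eligible intronic bases, which is 46.7 members per Mb. Between 1001 and 2000 bp the density was 33.9 per Mb, between 2001 and 5000 bp 19.3 per Mb, and beyond 5000 bp 5.97 per Mb, where 54.5% of the eligible bases held 20.1% of members. Median signal changed little along the way, from 94.5 in the nearest bin to 88.6 in the farthest.

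A first intron of at least 1 transcript held 642 of 869 members (73.9%), against 43.0% of the eligible bases. The share was above that of the bases in each distance bin, with 82.0% against 69.4% at 501 to 1000 bp and 57.1% against 30.9% beyond 5000 bp. Intronic summits with no core lay in first introns at 72.1%, a difference of 1.75 points (interval −3.98 to 7.89, Fisher's exact test, adjusted p = 0.5896), so this interval spans differences of either sign. Another count took, at each summit, only the longest transcript of any host gene with an intron there. By that count the first-intron shares were 53.4% and 44.6%, with an adjusted p of 0.0131 by the same test.

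**Figure D4:**
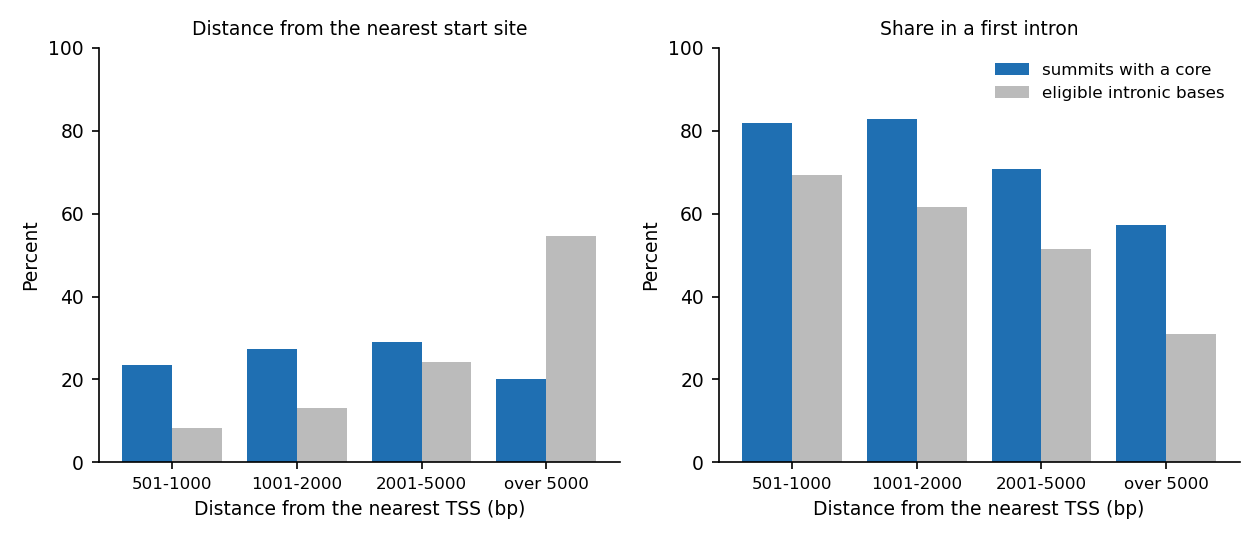
Left, the percent of the 869 intronic core summits (blue) and of the eligible intronic bases (grey) in 4 bins of distance from the nearest TSS. Right, the percent of each bin's summits and bases that lie in a first intron; blue stands above grey in all 4 bins, from 82.0% against 69.4% to 57.1% against 30.9%.

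Density was 19.1 members per Mb of eligible intron on 2L, 17.1 on 2R, 19.5 on 3L, 15.2 on 3R and 13.1 on X, a range that was not tested, and no member lay on chromosome 4 or on Y. Where peaks overlap, 1 place can hold several members: 115 members overlapped another peak of the list, and merging gave 831 places. Of the 38 members with a signal under 20, 37 overlapped another peak.

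At the edge of the rule, the members nearest to a TSS were summits in pros and jar, both 501 bp away with signals of 158 and 168, and in axo, 504 bp away with 91.1. Just outside were summits at ph-p and CG9981, both 495 bp away with 606 and 86.6, and at bdg, 494 bp away with 137. In 23 members the nearest core's midpoint lay 45 to 50 bp from the summit, with a median signal of 84.1, and 35 summits with none within 50 bp had one within 55 bp, with a median of 88.2.

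Protein-coding host genes numbered 641, which is 7.03% of the 9115 such genes with any eligible intron. The hosts had a median of 9.53 kb of eligible intron and all such genes 0.463 kb. Among the 1823 genes with the most intron, each with over 5 kb, 23.4% were hosts. They held 671 members when a summit is counted once for each of its host genes, and 52 members had 2 or more hosts. A single member lay in 459 of the genes, 2 in 125, 3 in 33 and 4 or more in 24. These are counts of members, some of which overlap each other. Another 11 members had no protein-coding host.

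Eip75B, a nuclear receptor gene switched on by the moulting hormone ecdysone, held the most, with 9 members over 92.1 kb of eligible intron. Their signals ran from 51.9 to 165, with a median of 109, 7 had WGATAR and 5 were called in both replicates. The strongest, whose window is shown above with 3 cores, had signals of 105 and 73.7 in replicates 1 and 2. Smr, which encodes a corepressor that binds the ecdysone receptor, held 5, with signals from 73.2 to 165, of which 4 were called in both replicates and 1 had WGATAR. Another 5 lay in bun, a growth regulator of the TSC-22 family, with signals from 56.0 to 157. All 5 had WGATAR and 2 were called in both replicates. Pde11, a cyclic nucleotide phosphodiesterase gene, held 5, from 73.3 to 156, and atos held 5, from 20.7 to 85.1. The 5 in atos lay in 4 merged places.

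Among the 24 genes that held 4 or more members, scrib had the highest median signal, 253 over its 4 summits. Scribble is a scaffold protein of the septate junction that holds epithelial polarity. The signals in replicate 1 were 145, 107, 133 and 88.9, and in replicate 2, in the same order, 140, 137, 114 and 84.7. In the list across both replicates they were 286, 256, 251 and 182, all with WGATAR and all called in each replicate. They were spread along the gene, while those of Smr lay toward its 5′ end, as the maps of host genes show.

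**Figure D5:**
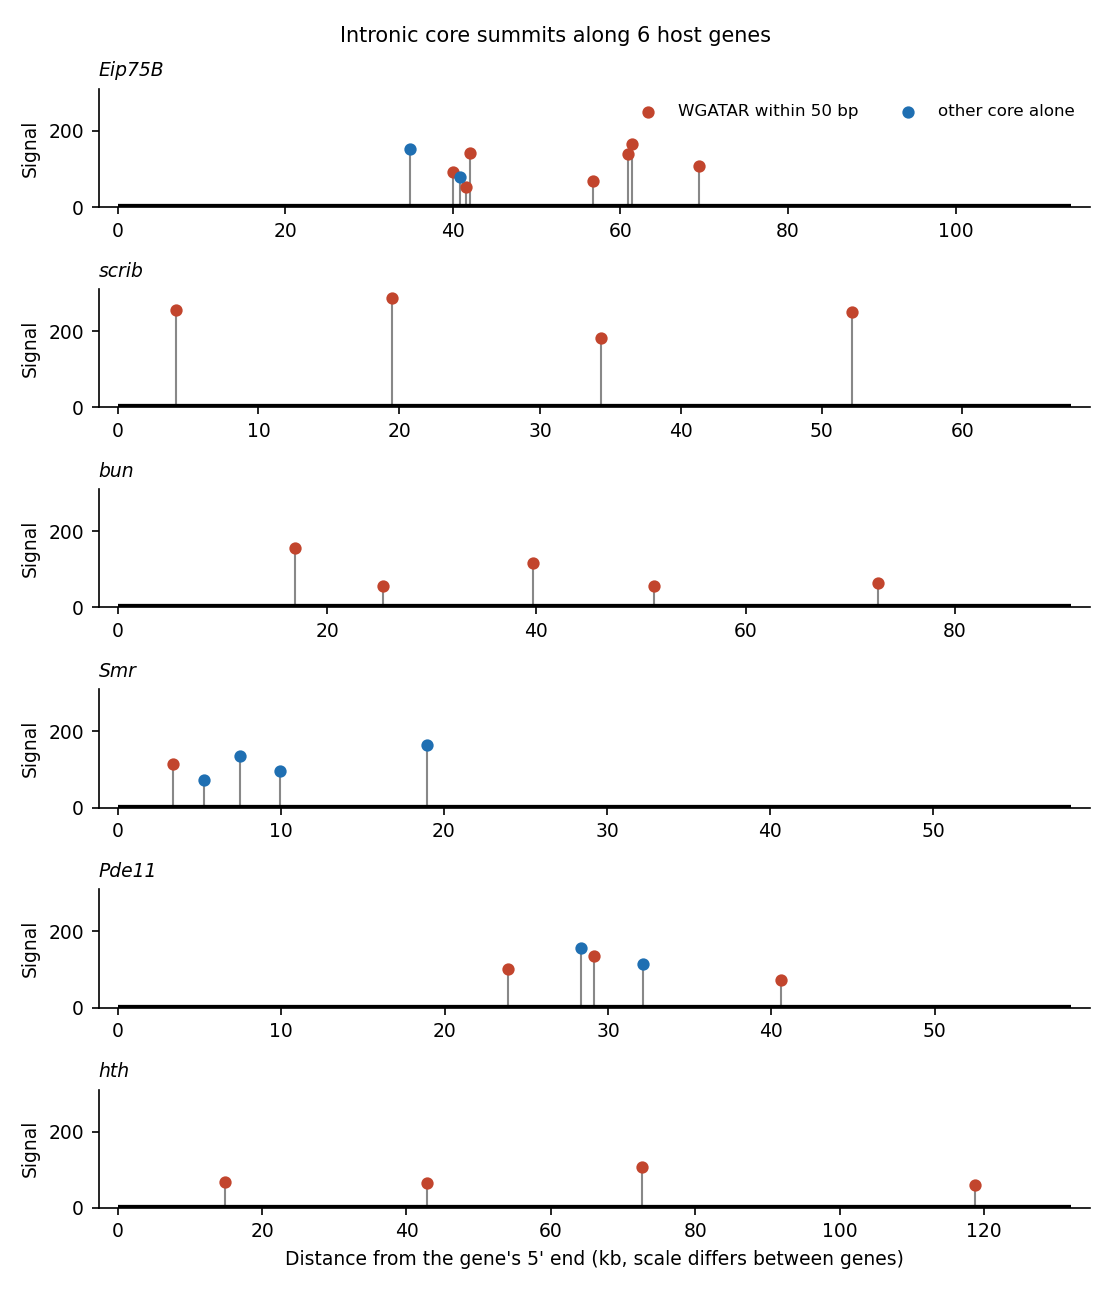
Intronic core summits along 6 host genes, with distance from the gene's 5′ end in kb on the horizontal axis, at a different scale for each gene, and signal on the vertical axis. Red points have WGATAR within 50 bp and blue points other cores alone; the 4 scrib summits stand between 182 and 286, and those of hth between 58.8 and 108.

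In all, 19 genes held 4 members each, scrib among them. Overlapping members share a place, and ush, Kr-h1, Pdp1, Pits, Pino, Pgant9, Samuel, Sarm and shep had 3 merged places each. The weakest members of Pits, Pdp1, shep, Pino and Kr-h1 had signals of 6.21, 5.69, 10.1, 10.1 and 11.6. In pnt, the Ets factor that acts at the end of EGF receptor signalling, signals ran from 65.4 to 180, and in shn, a zinc-finger factor of Dpp signalling, from 89.7 to 159. The FOG-family cofactor gene ush, whose product binds GATA factors, had 4 from 60.3 to 103, and hth, which encodes a homeodomain partner of Hox proteins, 4 from 58.8 to 108. Kr-h1, a factor of the juvenile hormone response, had 4 up to 143, all with WGATAR, and fru, the sex-determination factor of the nervous system, 4 up to 122, 1 with WGATAR. The bZIP gene Pdp1 and the forkhead gene CHES-1-like reached 259 and 218. Pits, Pino, Pgant9, CG3764, Samuel, MESR3, CG1677, tna, Sarm and shep completed the group, with highest signals from 89.7 at shep to 264 at Pits.

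Of the 5 GATA factor genes, 3 hosted a member. GATAe itself had one with a signal of 170, at chr3R:16014563-16014922, 2469 bp from the nearest TSS, with replicate signals of 72.3 and 87.5 and 4 cores in its window. Whether the inserted GATAe-eGFP transgene adds copies of this sequence was not examined. GATAd had a member with a signal of 222, with 127 and 92.2 in the replicates. At grn the signal was 63.1, with 32.3 and 36.1, and neither replicate called it in its thresholded list. Of list genes named below, CtBP, wit, nkd, fz3, N, sn, crq, sli, aos, vri and AcCoAS had no member called in both replicates. The summits given for brm, sn, aos, kirre and mdy also lay in CG17029, sws, CG33158, CG32795 and CG13280, in that order. In the list of GATA cofactors and chromatin regulators, 3 of 15 genes with eligible intron were hosts, with brm, the ATPase of the SWI/SNF complex, at 103 and the corepressor gene CtBP at 67.1 beside ush.

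Endoderm and midgut transcription factors were hosts in 8 of 25 cases with 15 members. Ptx1, at 317, was followed by the Hox gene Abd-B at 143, the nuclear receptor gene Hnf4 at 112 and hth at 108. The median over the 15 was 68.1, below the 92.0 of all members in coding genes. Genes of the smooth septate junction, polarity and adhesion were hosts in 8 of 19 cases, with scrib followed by mesh, a membrane protein of the midgut's smooth septate junction, at 173. The polarity kinase gene aPKC had 136 and cora, which encodes a septate junction band-4.1 protein, 126. At mesh the replicate signals were 83.1 and 87.1. Integrins and their partners gave 3 hosts of 13, with scb, the talin gene rhea at 167 and the paxillin gene Pax at 104. None of 7 innexin genes, whose products form gap junctions, was a host.

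Ecdysone response and nuclear receptor genes gave 8 hosts of 21 with 23 members, the most of any list. Besides Hr3 and Eip75B, Hr4 had a summit of 229, with replicate signals of 107 and 115, and the ecdysone receptor gene EcR one of 185, with 88.8 and 93.2. Among signalling pathways, Dpp genes were hosts in 7 of 14 cases, insulin and growth genes in 6 of 16, EGF receptor genes in 4 of 18, Wnt genes in 4 of 20, JAK/STAT genes in 2 of 12 and Notch genes in 2 of 12. For Dpp the strongest after shn were the inhibitory Smad gene Dad at 121 and the receptor genes wit and tkv at 119 and 115. In the growth list S6k and CHES-1-like led, with bun and then the insulin receptor gene InR at 149. At pnt, the repressor aop (151), and the feedback inhibitors sty (92.8) and aos (83.6), the EGF receptor list had its 4 hosts.

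The Wnt receptor gene fz2 had a summit of 248, with 119 in each replicate, and arr, nkd and fz3 had 120, 110 and 75.7. Socs36E, a feedback inhibitor of JAK/STAT signalling, had a summit of 260 with 3 WGATAR cores and replicate signals of 121 and 132, and Stat92E, the pathway's transcription factor, one of 130. The Notch list gave the coactivator gene mam at 104 and N at 76.6.

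Lists for other tissues were not empty. Haemocyte genes were hosts in 4 of 17 cases, led by zfh1 (217) and the fascin gene sn (126), with ush and the scavenger receptor gene crq (70.0) behind. Muscle genes were hosts in 7 of 20 cases, led by the myoblast fusion gene mbc (260), Msp300 (169), Mef2 (147) and kirre (138). Nervous system genes were hosts in 4 of 21 cases, pros (158), fra (121), mbl (98.8) and sli (85.3). Lipid genes gave 3 of 14, FASN1 (120), mdy (101) and AcCoAS (62.3), and clock genes 3 of 8, Pdp1, cwo (185) and vri (82.8).

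The lists differed in intron content as well as in counts. Against 7.03% of all genes with eligible intron, the lists ran from 0% for innexins to 60% for GATA factors, but the median eligible intron per gene ran from 0.299 kb to 20.6 kb, and 23.4% of the 1823 genes with the most intron were hosts. Per Mb of eligible intron, all genes together had 15.7 members. Nervous system genes had 7.87, Notch genes 8.32 and Wnt genes 10.7, and muscle genes 16.6. Midgut transcription factors had 29.0, ecdysone genes 39.4, Dpp genes 46.1, GATA factors 51.5 and junction and polarity genes 59.1. Clock, lipid and insulin genes had the highest densities, 87.0, 96.5 and 97.1, on 80.5, 41.5 and 165 kb of intron. The lists were not tested, and nothing is read from their order.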

How the data were processed

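The 2 biological replicates of GATAe-eGFP ChIP-seq, 1 group, were deposited as peak lists on dm6, per the labels. The authors gave each peak a score and a signal value; the deposited signal has no stated scale and is not common between lists. Per the files, thresholded lists hold peaks above a fixed score. Neither an aligner nor a caller is named in the labels or files used, and read depth is unknown. Members came from the conservative thresholded list, of which 15 peaks lay off the arms and were left out. Replicate signals came from the strongest ranked peak of that replicate holding the summit, and a replicate called a peak when its thresholded list overlapped it by 1 bp.

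Genes came from Ensembl release 115 without pseudogenes or transposable elements, and bases from RefSeq's dm6 sequence, in which 99.8% of 30618 annotated start codons read ATG. Summits were classed in the order promoter, exon, intron, intergenic. The core had to lie whole in the window, while its neighbouring bases could lie outside. Eligible intron is sequence in a gene body, in no exon and over 500 bp from every TSS. Comparisons were two-sided Fisher's exact tests, adjusted by Benjamini-Hochberg over 9 class comparisons or over all 2032 6-mers, with a threshold of 0.05. They treat peaks as independent, which neighbours are not, and there is no test over embryos. Counting steps were tested on simulated data. Tests ran in scipy 1.17.1 and figures were drawn with matplotlib 3.10.9, under Python 3.11.15 with pandas 2.3.3 and numpy 2.4.6.

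The members, the 18 gene lists and the tests were chosen with earlier results of these data known. Of 309 list symbols, 8 had no match. Genes named are hosts of the 25 strongest members, genes hosting 4 or more, and up to 4 genes per list with the strongest member, and words named are the 20 6-mers with the lowest p; GATTGC, CG12065, the genes at the rule's edges and the additional words of the closing section were chosen otherwise. Alternatives were the list of each replicate alone, the second series-level list, other windows, TSS distances, scores, flanks and signal minimums, merged peaks and another first-intron rule. Windows with 1 core and flanks in introns were added after seeing the data.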

Additional observations from a re-analysis of the deposited data

How the results depend on the processing

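Of 141 alternative values, 113 kept their direction and side of the threshold, or stayed within 1.5 times for a count. The word at the nearest core, the number of cores and both comparisons with promoters did so under every alternative tried. The comparisons that changed are given in percentage points. Calling by both replicates, core minus no core, was 4.14 with windows of 25 bp. Signal above the median of all peaks, core minus no core, ranged from 1.68 to 14.6 without 1 replicate. The same for WGATAR against other cores ranged from −2.15 to 8.99 without 1 replicate and was −3.49 with windows of 25 bp, 7.09 with merged peaks and 7.58 with signals of 20 or more. A core within 25 bp, summit minus flank, ranged from 5.54 to 8.14 without 1 replicate and was 3.72 in windows with 1 core. First intron, core minus no core, was −1.84 with windows of 25 bp and −1.96 with the highest score only. It was 8.80 counting only the longest transcript with an intron at the summit. The number of members ranged from 515 to 655 in a single replicate's list. The 6-mers more frequent at summits, 5 in the main setting, numbered 5 and 8 in a single replicate's list, 0 with windows of 25 bp, 42 with 100 bp, 9 and 3 at 200 and 1000 bp from a TSS, 12 with the highest score only, 14 with flanks at 1000 bp and 9 with flanks in introns. Those less frequent, 18 in the main setting, numbered 9 and 16 in a single replicate's list and 1, 78, 32 and 10 with the same windows and distances, then 34 with flanks at 1000 bp and 33 with flanks in introns. The causes were not tested. No paired analysis was possible because the study has 1 group.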

Other observations

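Of the 5 words that were more frequent beside the cores, 4 hold GATT, a core with its last base changed. Searched without masking, a choice made after those words were seen, GATTAG lay within 50 bp of 105 of 869 members (12.1%, interval 9.99 to 14.4) and in 4.60% of their 1738 flank windows (interval 3.67 to 5.70). It lay in 7.67% of the 287 intronic summits with no GATA core (interval 4.87 to 11.4), in 3.14% of the flanks of those summits (interval 1.87 to 4.91) and in 8.16% of core summits at promoters. CTGATT followed with 10.2% of members, 5.70% of their flanks and 5.23% of the summits with no core. GTACAC, the only word of the 5 without GATT, lay in 4.88% of the summits with no core and 2.09% of their flanks. These are counts on the windows that drew attention to the words and carry no test. An unmasked hit can share bases with a core, as in the p130CAS window above. Every member holds a core by rule, against 49.3% of flank windows. With core bases masked, GATTAG lay at 8.17% of members and 4.26% of their flanks.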
